A study of Homo sapiens with 4 samples.

Results

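The genes that carry iron into a cell, store it and send it out again were followed in human leukemia cells treated with periplocin, a natural product of Cortex periplocae. They number 10 of the 20348 genes in the deposited count table and were taken by their Ensembl identifiers. TFRC, TFR2, STEAP3 and SLC11A2 stand for uptake, FTH1, FTL and NCOA4 for storage and its release, and SLC40A1 for export. IREB2 stands for control of some of the others, and HMOX1 for iron recovered from heme. K562 is an established line from chronic myeloid leukemia with erythroid features, and THP-1 is an established line from acute monocytic leukemia. Per the study's methods, each line was kept for 72 h with the solvent DMSO or with 100 nM periplocin. Sample titles describe the controls as blank, whereas the library names give DMSO. There were 4 libraries of poly-A RNA, 1 per condition, and the methods state a single biological replicate, so no difference has a replicate check. Gene positions are those of GENCODE 29 on GRCh38, with the exons of the longest coding transcript. Total counts were between 16381172 and 20622719 per library. Values are CPM, a gene's counts scaled to the same total in every library, and changes are log2 ratios of periplocin to DMSO after TMM scaling, which corrects the totals for differences in composition. Each ratio carries a 95% interval (exact binomial, Clopper-Pearson) that covers counting error only and compares libraries, not conditions.

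Iron circulates bound to transferrin, is taken up by transferrin receptor, is reduced in the endosome by a STEAP reductase and passes into the cytosol through a divalent metal transporter. What is not used is stored in ferritin, a shell of heavy and light chains, and ferroportin is the known route out of the cell. Iron regulatory proteins bind hairpins called iron-responsive elements (IREs) when iron is scarce. A hairpin in the 5′ UTR then blocks translation, while hairpins in the 3′ UTR of the transferrin receptor mRNA protect it from decay. Erythroid cells take up large amounts of iron for heme, and cells of the monocyte line store and recycle it.

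IRE-type hairpins were sought in the UTRs of GENCODE 29 transcripts on GRCh38, because some genes of this set are known to be controlled through them. The letters searched were C, 5 bases, CAGTGN and 5 bases that pair with the first 5, with G:T pairs allowed, on the mRNA strand. The sites are shown as the genome's letters with T, 5′ to 3′ along the mRNA, and the capitals mark the unpaired C and the loop of 6 bases.
FTL, 5′ UTR, chr19:48965336-48965362, plus strand: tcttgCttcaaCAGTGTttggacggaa
SLC40A1, 5′ UTR, chr2:189580662-189580688, minus strand: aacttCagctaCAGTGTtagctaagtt
TFRC, 3′ UTR, chr3:196050464-196050490, minus strand: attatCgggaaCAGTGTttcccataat
TFRC, 3′ UTR, chr3:196050511-196050537, minus strand: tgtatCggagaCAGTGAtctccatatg
TFRC, 3′ UTR, chr3:196050576-196050602, minus strand: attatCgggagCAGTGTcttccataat
TFRC, 3′ UTR, chr3:196050980-196051006, minus strand: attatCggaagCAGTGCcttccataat
ALAS2, 5′ UTR, chrX:55030942-55030968, minus strand: tcgttCgtcctCAGTGCagggcaacag

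FTH1 also had a match in its 5′ UTR, at chr11:61967575-61967601 on the minus strand. Of 19464 genes scanned, 28 (0.144%) held such a match in a 5′ UTR and 125 (0.642%) in a 3′ UTR. TFRC, with 4 sites in its 3′ UTR, was the only gene with 3 or more there. ALAS2, the erythroid enzyme that begins heme synthesis, is not one of the 10 genes but belongs to the list of other iron handling genes described later. In that list TF, the gene of transferrin itself, had a 3′ UTR match as well. Of the 10 genes, SLC11A2, TFR2, STEAP3, NCOA4, IREB2 and HMOX1 had none with these letters. That says only that this pattern is not in their annotated UTRs. A match is a description of sequence and not a measured binding site. The libraries measure mRNA, so control of translation through a 5′ hairpin is outside what they record.

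The cell lines carried their own marker genes. All 12 erythroid markers, among them globins, GATA1 and KLF1, were at least 2-fold lower in THP-1 DMSO than in K562 DMSO. Of 12 monocytic markers, 11 had a mean of at least 1 CPM over those libraries, and 10 of them were at least 2-fold higher in THP-1 and 1 (CEBPB) lower. Any marker called with under 1 CPM in a DMSO library passed that mean only through the other line, so the filter fixed its direction. The erythroid markers summed to 2561 CPM in K562 DMSO and 12300 CPM in K562 periplocin, against 11.7 CPM and 9.37 CPM in THP-1. GYPB was at 0 in both THP-1 libraries. The monocytic markers summed to 1463 CPM in THP-1 DMSO and 1783 CPM in THP-1 periplocin, against 181 CPM and 125 CPM in K562, where MPO was at 0 in both libraries.

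The lines differed in most of the iron genes after 72 h in DMSO alone. There, 5 of the 10 genes were at least 2-fold lower in THP-1 than in K562 (TFRC, TFR2, FTH1, SLC40A1 and SLC11A2) and 2 were at least 2-fold higher (IREB2 and HMOX1). Among all 12845 genes averaging 1 CPM or more over those libraries, 21.2% were lower by this fold and 22.8% higher. The median log2 ratio of the 10 genes was -0.82, against 0.02 for all those genes. The widest gap was in TFR2, 19.4-fold lower in THP-1, followed by HMOX1, which was 8.64-fold higher on 4 counts in K562 and 40 in THP-1. On the log2 scale the HMOX1 gap was 3.11 (1.64 to 5.05). HMOX1 was at 0.244 CPM in K562 DMSO and 1.94 CPM in THP-1 DMSO. It passed the mean of 1 CPM only through THP-1, so the filter fixed the direction of its call. FTH1 was 7.83-fold lower in THP-1 and SLC40A1 6.89-fold lower, whereas FTL differed by 1.15-fold.

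**Figure D1:**
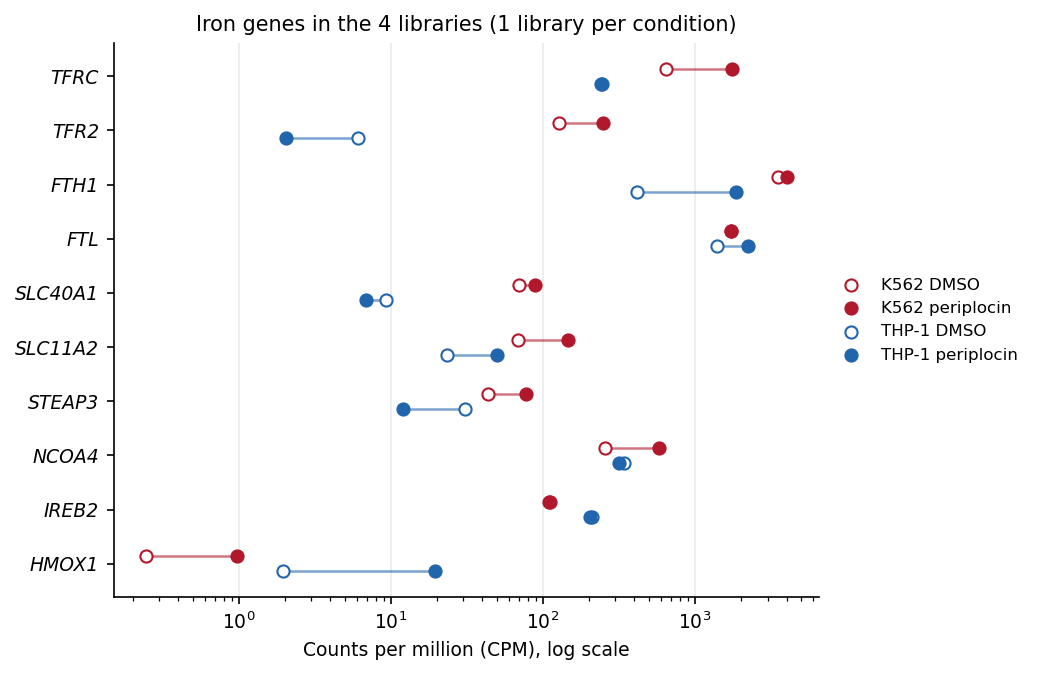
Level of each iron gene (rows) in CPM on a log axis, with open points for DMSO, filled points for periplocin, red for K562 and blue for THP-1, and a line joining the libraries of a line (1 library per condition). TFRC and NCOA4 are higher after periplocin in K562 and stay near their DMSO level in THP-1, FTH1 moves from 413 to 1855 CPM in THP-1, and TFR2 and STEAP3 lie on opposite sides of their DMSO points in the 2 lines.

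In K562, 2 of the 4 uptake genes (TFRC and SLC11A2) and the ferritin receptor NCOA4 were at least 2-fold higher with periplocin, while the ferritin chains were within 1.14-fold of their DMSO level. In THP-1, the heavy chain of ferritin and HMOX1 were higher, and TFR2 and STEAP3 were lower. A gene was called when its ratio reached 2-fold (a log2 ratio of 1 in size) and its mean over the pair of libraries was at least 1 CPM. By this rule 3 of 9 iron genes tested in K562 were higher (TFRC, SLC11A2 and NCOA4) and 0 lower, against 8.84% higher and 11.6% lower among 11863 genes. HMOX1 was under 1 CPM in K562 and was not tested there. In THP-1, 3 of 10 were higher (FTH1, SLC11A2 and HMOX1) and 2 lower (TFR2 and STEAP3), against 8.05% and 10.5% of 12341 genes. The median log2 ratio of the tested iron genes was 0.81 in K562, where 8 were above zero and 1 below, and -0.03 in THP-1, where 4 were above and 6 below. For all tested genes it was -0.01 and -0.02. With bulk RNA, fewer cells of a kind and less RNA per cell cannot be told apart. Beside the K562 values stands the level of the erythroid markers, of which 11 of 12 were at least 2-fold higher after periplocin; their part in these results was not tested.

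**Figure D2:**
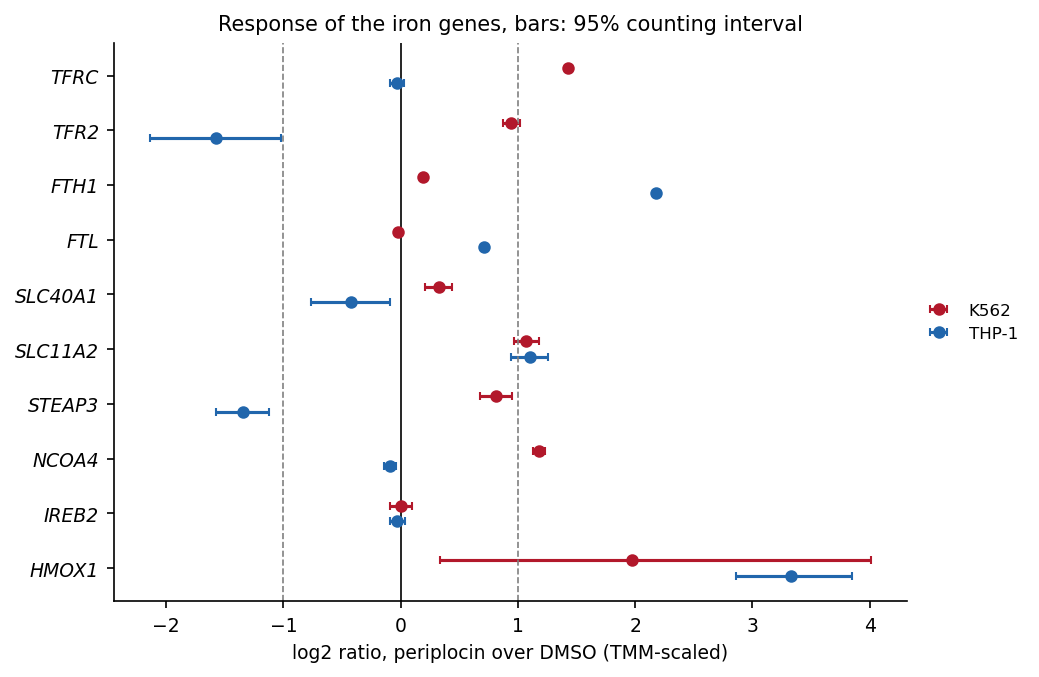
TMM-scaled log2 ratio of periplocin to DMSO for each iron gene in K562 (red) and THP-1 (blue), with bars for the 95% counting interval and dashed lines at 2-fold in either direction. SLC11A2 is past 2-fold in both lines with overlapping intervals, whereas TFR2 and STEAP3 lie above zero in K562 and past 2-fold below it in THP-1.

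TFRC (ENSG00000072274, chr3:196027183-196082189, minus strand, 19 exons) encodes transferrin receptor 1, the main entry for transferrin-bound iron and the gene with the 4 hairpins shown above. Its level was 641 CPM in K562 DMSO, 1741 CPM in K562 periplocin, 246 CPM in THP-1 DMSO and 240 CPM in THP-1 periplocin. K562 periplocin was thus the high library, with both THP-1 libraries at one level. The log2 ratio was 1.43 (1.40 to 1.46) in K562, a level 2.70-fold higher, and -0.03 (-0.09 to 0.03) in THP-1. The K562 ratio ranked 519 from the top of 11863 genes, and 70 among the 2579 that averaged 100 CPM or more. The response in K562 exceeded that in THP-1 by 1.46 (1.39 to 1.53) on the log2 scale.

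TFR2 (ENSG00000106327, chr7:100620416-100642779, minus strand, 19 exons), transferrin receptor 2, is a sensor of transferrin saturation found chiefly in liver and erythroid cells. It was at 128 CPM in K562 DMSO and 247 CPM in K562 periplocin, and at 6.06 CPM (125 counts) in THP-1 DMSO and 2.03 CPM (36 counts) in THP-1 periplocin. Its levels therefore moved in opposite directions from a high DMSO level in K562 and a low one in THP-1. Its log2 ratio in K562 was 0.94 (0.87 to 1.02), 1.92-fold higher and just under the 2-fold line. In THP-1 it was -1.57 (-2.14 to -1.02), 2.96-fold lower. The interval in THP-1 is wide because of the low counts, yet it stays past 2-fold.

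STEAP3 (ENSG00000115107, chr2:119223831-119265652, plus strand, 6 exons) encodes the endosomal reductase that converts ferric to ferrous iron after transferrin uptake. It was at 43.7 CPM in K562 DMSO, 77.4 CPM in K562 periplocin, 30.7 CPM in THP-1 DMSO and 12 CPM in THP-1 periplocin. The DMSO libraries were within 1.31-fold of each other, and the periplocin libraries lay on either side of both. Log2 ratios were 0.81 (0.68 to 0.95) in K562 and -1.34 (-1.57 to -1.12) in THP-1, levels 1.76-fold higher and 2.54-fold lower.

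SLC11A2 (ENSG00000110911, chr12:50979401-51028566, minus strand, 17 exons) encodes DMT1, the transporter that moves ferrous iron across the endosomal and plasma membranes. Its level was 69.0 CPM in K562 DMSO, 146 CPM in K562 periplocin, 23.5 CPM in THP-1 DMSO and 49.8 CPM in THP-1 periplocin. Of the 9 genes tested in both lines it was the only one called in the same direction in each. The share of all genes called so was not counted, so this does not set SLC11A2 apart. Log2 ratios were 1.07 (0.97 to 1.18) in K562 and 1.10 (0.94 to 1.26) in THP-1, 2.11-fold and 2.14-fold higher. The difference between the lines was -0.02 (-0.21 to 0.17), an interval that counting error alone sets. The lower bound of each ratio lies just below 2-fold.

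FTH1 (ENSG00000167996, chr11:61959718-61967660, minus strand, 4 exons) encodes the ferritin heavy chain, whose ferroxidase activity loads iron into the shell. It was at 3513 CPM in K562 DMSO, 4040 CPM in K562 periplocin, 413 CPM in THP-1 DMSO and 1855 CPM in THP-1 periplocin. THP-1 DMSO was the low library, and THP-1 periplocin remained under both K562 libraries. In THP-1 the log2 ratio was 2.18 (2.15 to 2.21), 4.53-fold higher, and in K562 it was 0.19 (0.17 to 0.21), 1.14-fold higher. The THP-1 ratio ranked 224 from the top of 12341 genes, and 3 among the 2458 that averaged 100 CPM or more. The response in K562 was below that in THP-1 by a log2 difference of -1.99 (-2.03 to -1.95). FTH1 counts are not whole numbers in the deposited table, whereas FTL counts are. GENCODE 29 holds 41 ferritin pseudogenes, 25 named for FTH1 and 16 for FTL, and 0 of them are in the table. Reads shared with such copies may have been divided, so the FTH1 level is uncertain by that amount. Its exons also overlap BEST1 on the opposite strand, and the strand setting of the counting is not given in the sources used here.

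FTL (ENSG00000087086, chr19:48965301-48966878, plus strand, 4 exons) encodes the ferritin light chain, which helps to form the mineral core. Its level was 1728 CPM in K562 DMSO, 1722 CPM in K562 periplocin, 1385 CPM in THP-1 DMSO and 2246 CPM in THP-1 periplocin. The THP-1 libraries lay on either side of the K562 pair, which was level. The log2 ratio was 0.71 (0.69 to 0.73) in THP-1, 1.63-fold higher and under 2-fold, and -0.02 (-0.04 to 0.01) in K562.

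The chains of ferritin did not move equally in THP-1. Per kilobase of transcript, FTH1 stood at 0.213 (0.208 to 0.218) of the FTL level in THP-1 DMSO and 0.590 (0.582 to 0.599) of it in the periplocin library, so the light chain mRNA was the more abundant in both. In K562 the heavy chain mRNA was the more abundant, at 1.45 (1.43 to 1.47) in DMSO and 1.68 (1.65 to 1.70) in periplocin. Heavy over light chain was higher after periplocin by 1.47 (1.43 to 1.51) on the log2 scale in THP-1 and by 0.21 (0.18 to 0.24) in K562. Such a ratio is taken within a library and does not depend on the scaling of totals. Its interval does not cover reads shared with ferritin pseudogenes. FTH1 and FTL together held 0.524% of all counts in K562 with DMSO and 0.576% with periplocin. In THP-1 their share was 0.180% with DMSO and 0.410% with periplocin.

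**Figure D3:**
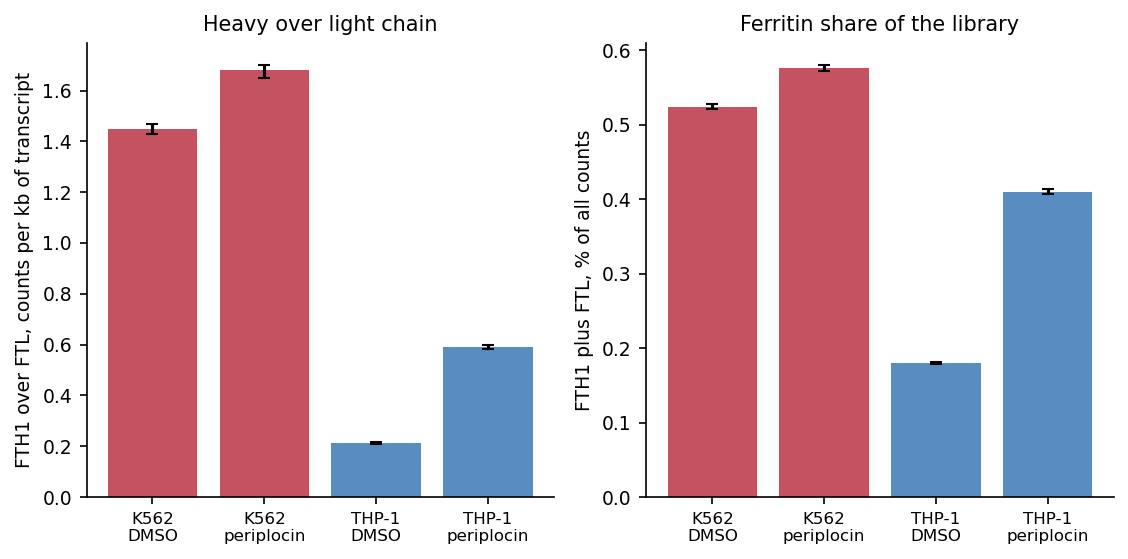
Left, FTH1 over FTL in counts per kilobase of transcript; right, both genes together as a percentage of all counts; bars are single libraries (K562 red, THP-1 blue) from 0, with 95% counting intervals. The left bars run from 0.213 in THP-1 DMSO to 1.68 in K562 periplocin, and the right bars from 0.180% in THP-1 DMSO to 0.576% in K562 periplocin.

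NCOA4 (ENSG00000266412, chr10:46005088-46030714, minus strand, 10 exons) encodes the receptor that delivers ferritin to lysosomes, the route by which stored iron is released. It was at 256 CPM in K562 DMSO, 584 CPM in K562 periplocin, 342 CPM in THP-1 DMSO and 318 CPM in THP-1 periplocin. K562 periplocin was the high library and the other 3 lay between 256 and 342 CPM. The log2 ratio was 1.18 (1.13 to 1.23) in K562, 2.27-fold higher, and -0.09 (-0.14 to -0.04) in THP-1. The response in K562 was 1.27 (1.2 to 1.35) above that in THP-1.

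SLC40A1 (ENSG00000138449, chr2:189560579-189583758, minus strand, 8 exons) encodes ferroportin, the iron exporter. Its level was 69.8 CPM in K562 DMSO, 88.1 CPM in K562 periplocin, 9.31 CPM (192 counts) in THP-1 DMSO and 6.88 CPM (122 counts) in THP-1 periplocin. Neither line passed 2-fold. The log2 ratio was 0.33 (0.21 to 0.44) in K562, 1.25-fold higher, and -0.42 (-0.76 to -0.09) in THP-1, 1.34-fold lower. FTH1 over SLC40A1 within a library, storage against export, differed between periplocin and DMSO by 2.60 (2.27 to 2.93) on the log2 scale in THP-1 and by -0.13 (-0.25 to -0.02) in K562. The THP-1 figure is made up of a higher FTH1 and a lower SLC40A1.

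TFRC and FTH1 are the textbook pair that iron regulatory proteins move in opposite directions at the level of protein. As mRNA, TFRC over FTH1 within a library differed between periplocin and DMSO by 1.24 (1.2 to 1.28) on the log2 scale in K562 and by -2.21 (-2.28 to -2.14) in THP-1. In K562 it was TFRC that passed 2-fold, and in THP-1 it was FTH1. IREB2 (ENSG00000136381, chr15:78437431-78501456, plus strand, 22 exons) encodes iron regulatory protein 2. It was at 110 and 111 CPM in K562 DMSO and periplocin and at 211 and 205 CPM in THP-1. Its log2 ratio was 0.00 (-0.09 to 0.10) in K562 and -0.03 (-0.09 to 0.04) in THP-1, the smallest pair of ratios among the 10 genes. IREB2 is known to be controlled by protein decay, which these counts do not show. ACO1, whose product doubles as iron regulatory protein 1, had log2 ratios of -0.12 (-0.26 to 0.02) and -0.34 (-0.49 to -0.19). FBXL5, the adaptor for degradation of iron regulatory protein 2, had 0.46 (0.32 to 0.60) and -0.23 (-0.31 to -0.15). ACO1 and FBXL5 were chosen after their values were seen.

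HMOX1 (ENSG00000100292, chr22:35380361-35394214, plus strand, 5 exons) encodes heme oxygenase 1, the inducible enzyme that opens the heme ring and frees its iron. It had 4 counts (0.244 CPM) in K562 DMSO and 16 (0.966 CPM) in K562 periplocin, and 40 counts (1.94 CPM) in THP-1 DMSO and 344 (19.4 CPM) in THP-1 periplocin. THP-1 periplocin was the only library above 2 CPM. The log2 ratio in THP-1 was 3.33 (2.86 to 3.85), 10.1-fold higher, and ranked 74 from the top of 12341 genes. In K562 it was 1.97 (0.34 to 4.01), and the difference between the lines of -1.36 (-3.01 to 0.29) was not detectable at this depth. HMOX2, the constitutive heme oxygenase, had log2 ratios of -0.07 in K562 and 0.00 in THP-1. NFE2L2, which encodes the activator NRF2, had -0.49 (-0.56 to -0.43) in K562 and 0.94 (0.87 to 1.01) in THP-1. BACH1, the heme-sensing repressor of HMOX1, had 0.37 and 0.32. HMOX2, NFE2L2 and BACH1 were also chosen after their values were seen.

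Per kilobase of the longest coding transcript, the order of the genes differed between the lines. In K562 DMSO it ran FTH1 (2858 CPM per kb), FTL (1968), TFRC (125), NCOA4 (72.1), TFR2 (40.7), SLC40A1 (20.3), IREB2 (17.3), SLC11A2 (15.9), STEAP3 (10.3) and HMOX1 (0.134). In THP-1 DMSO it ran FTL (1577 CPM per kb), FTH1 (336), NCOA4 (96.4), TFRC (48.2), IREB2 (33.2), STEAP3 (7.21), SLC11A2 (5.40), SLC40A1 (2.70), TFR2 (1.94) and HMOX1 (1.06). After periplocin the first 5 places were the same genes in the same order in each line. Below them, SLC11A2 stood at 33.7 CPM per kb in K562 and moved above SLC40A1, while IREB2 stood below STEAP3. In THP-1, SLC11A2 (11.5 CPM per kb) and HMOX1 (10.7) stood above STEAP3 (2.82), SLC40A1 (2.0) and TFR2 (0.649). With 1 library per condition, whether neighbours in these orders differ beyond the spread of samples cannot be said.

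**Figure D4:**
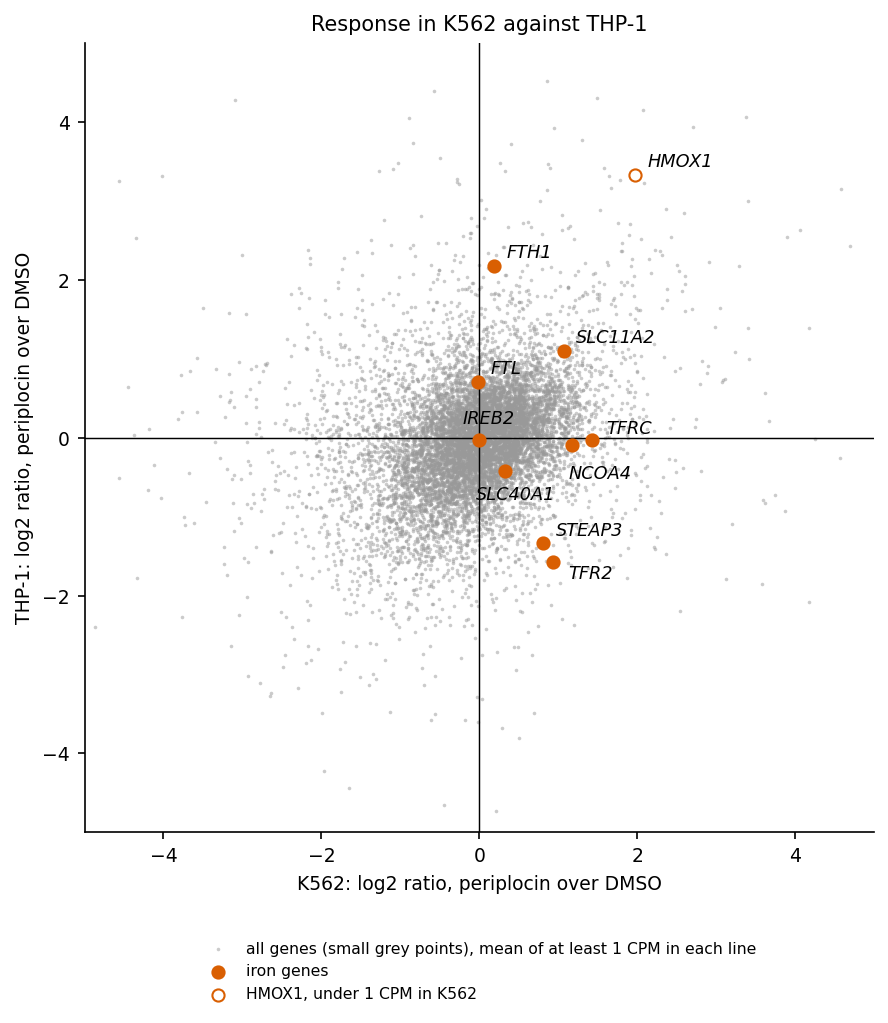
Log2 ratio of periplocin to DMSO in K562 (x axis) against THP-1 (y axis) for the iron genes (orange, open for HMOX1, which is under 1 CPM in K562) and for 10763 genes averaging 1 CPM or more in both lines (grey, 11 outside the axes). SLC11A2 lies near the diagonal, FTH1 near the y axis, TFRC and NCOA4 near the x axis, and TFR2 and STEAP3 at the lower right, above zero in K562 and below it in THP-1.

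A single fit over all 4 libraries, with terms for line and for periplocin, gave each gene a single change over both lines. Its error comes from the disagreement between the lines, with 1 residual degree of freedom, and is estimated for each gene with help from all genes. A small p therefore does not mean that the lines agree. By edgeR's quasi-likelihood test 0 of 13584 genes (0%) had an adjusted p under 0.05, and 1538 (11.3%) had an unadjusted p under 0.05. Of the 10 iron genes, HMOX1 and SLC11A2 were under 0.05 before adjustment. HMOX1 had a log2 change of 2.84 (edgeR quasi-likelihood adjusted p = 0.361), higher in both lines. SLC11A2 had 1.09 (edgeR quasi-likelihood adjusted p = 0.361), also higher in both lines. FTH1 followed with 1.19 (edgeR quasi-likelihood adjusted p = 0.469). That value lies between unlike log2 ratios, 0.19 in K562 and 2.18 in THP-1, and is not a response of the same size in both lines. DESeq2 with the same terms called 126 genes, none of them an iron gene, and gave SLC11A2 an adjusted p of 0.113 and HMOX1 one of 0.186.

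Other genes of the pathway were read from lists written with earlier results of these data known. Of 30 other iron handling genes, 18 were tested in K562, with 3 higher, 0 lower and a median log2 ratio of 0.40, against 8.84% higher and 11.6% lower among all genes tested. ALAS2 was at 90.5 CPM in K562 DMSO and 651 CPM in K562 periplocin, a log2 ratio of 2.84 (2.76 to 2.92), and had 3 counts in each THP-1 library. SLC39A8, a metal importer of the ZIP family, was at 136 and 378 CPM, a log2 ratio of 1.46 (1.39 to 1.53), and -0.15 (-0.25 to -0.06) in THP-1. The third was HJV, at 35 and 107 counts and named after its value was seen. In THP-1, 14 of the list were tested, with 1 higher, 1 lower and a median of -0.19, near the 8.05% higher and 10.5% lower of all genes. EPAS1, a hypoxia-inducible factor that controls iron genes in other tissues, was at 102 and 334 CPM, a log2 ratio of 1.72 (1.65 to 1.79), against -0.53 (-0.64 to -0.43) in K562.

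Among 14 genes of heme transport and breakdown, 10 were tested in each line, with 4 higher and 0 lower in K562 (median 0.26) and 0 past 2-fold in THP-1 (median 0.17), beside the same shares of all genes. LRP1, a receptor for hemopexin with heme, had 121 and 472 counts in K562, a log2 ratio of 1.94 (1.65 to 2.24). ABCG2, a porphyrin exporter, had 1.52 (1.3 to 1.75), and BLVRB, a biliverdin reductase abundant in red cells, had 1.15 (1.10 to 1.21). The other was BLVRA, which encodes biliverdin reductase A, at 1.11 (0.99 to 1.23) and named after its value was seen. LRP1 had 0.24 (0.00 to 0.47) in THP-1, and BLVRB had 0.91 (0.71 to 1.12).

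All 24 genes of iron-sulfur cluster assembly were tested in each line, with 0 higher and 2 lower in K562 (median -0.09) and 0 higher and 3 lower in THP-1 (median -0.19). Among all genes tested, 8.84% were higher and 11.6% lower in K562, and 8.05% higher and 10.5% lower in THP-1. The lower counts are near those shares and so say nothing particular of this list. Whether 0 higher of 24 falls short of its share was not tested. HSPA9, the mitochondrial chaperone of the assembly machinery, was at 1115 CPM in K562 DMSO and 462 CPM in K562 periplocin, a log2 ratio of -1.28 (-1.32 to -1.24). In THP-1 it was at 479 and 381 CPM, a log2 ratio of -0.32 (-0.36 to -0.27). The others that were lower, HSCB in K562 and LYRM4, BOLA3 and FDXR in THP-1, were all under 10 CPM on average in that line and are named after their values were seen. Genes of the mitochondrial genome took 5.62% of counts with DMSO and 2.07% with periplocin in K562, and 5.24% and 3.92% in THP-1.

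In K562, the erythroid markers had a median log2 ratio of 1.78, with 11 of 12 higher and 0 lower. Among all genes tested in K562, 8.84% were higher and 11.6% lower. The largest were HBA2 at 3.38 (3.29 to 3.47), HBZ at 3.21 (3.14 to 3.27) and HBA1 at 3.09 (3.04 to 3.13). HBA1 and HBA2 are near-identical copies, so the division of reads between them is uncertain. The monocytic markers tested in K562 were 6, with 2 higher (ITGAM and CD14, the latter on 1 and 69 counts) and 2 lower. The lower ones were CD33, at -1.54 (-1.84 to -1.24), and CEBPB, at -1.47 (-1.62 to -1.33). In THP-1, 3 of the 12 monocytic markers were higher and 1 (MPO, at 43 and 14 counts) lower, with a median of 0.36. Among all genes tested there, 8.05% were higher and 10.5% lower. Of the 12 markers, 7 were above zero and 5 below. Those below besides MPO were CD33 (-0.60), LYZ (-0.30), CEBPA (-0.21) and CSF1R (-0.20), named after their values were seen. CD14 had 8 and 382 counts there, a log2 ratio of 5.81 (4.81 to 7.03). In each line CD14 passed the mean of 1 CPM only through the periplocin library. MPO passed it in THP-1 only through the DMSO library. The filter thus fixed the direction of these calls, and they add nothing to the comparison with all genes. FCGR1A had 1.45 (1.37 to 1.53) and ITGAM 1.12 (0.98 to 1.27). The part of these genes' programmes in the THP-1 values of FTH1, FTL and HMOX1 was not tested.

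**Figure D5:**
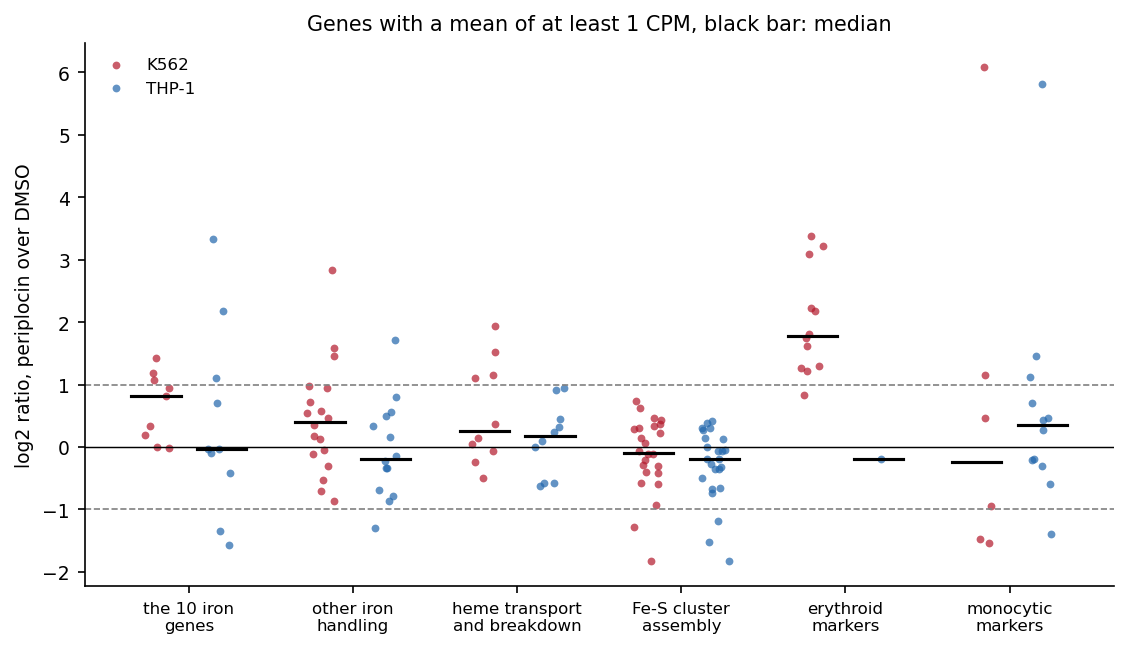
Log2 ratio of periplocin to DMSO for each tested gene (points, averaging 1 CPM or more in that line; sideways spread has no meaning) in the 10 iron genes and 5 other lists, K562 red and THP-1 blue, with black bars for medians and dashed lines at 2-fold. The K562 medians are 0.81 for the iron genes and 1.78 for the erythroid markers, and the THP-1 medians run from -0.19 to 0.36.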

How the data were processed

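Poly-A RNA of K562 and THP-1 cells (DMSO or periplocin) was read from both ends, 1 library for each condition. The methods name a T7 platform, the labels an Illumina instrument. The authors deposited expected counts per Ensembl gene, of which 87.4% to 88.3% are whole numbers, without normalization or pooling. The submitters' processing notes name HISAT2, StringTie 1.3.1 and hg38 without roles. The counting program, annotation and strand setting are not given in the sources used here. All columns were used.

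Expected counts were rounded to whole numbers. Symbols were matched for 20310 of 20348 genes by identifier, and 20118 were found in GENCODE 29 (GRCh38), which gave lengths and UTRs. TMM factors came from edgeR 4.0.16 in R 4.3.3, and intervals from scipy 1.17.1 in Python 3.11.15. Intervals on differences between lines or ratios of genes are normal on the log scale. Totals of 16381172 to 20622719 counts set the precision, and estimated counts are not independent molecules, so counting error is the least error. Within a line no test was made. The fit over both lines used edgeR's quasi-likelihood test with Benjamini-Hochberg adjustment after a filter of 10 counts or more in 2 or more libraries, and DESeq2 1.42.0 was the alternative. The steps were tested on simulated counts with known changes and less spread than in these data. That checks the working of the steps and not their error rates here.

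The 10 genes and the lists were chosen with earlier results of these data known. Named genes are all 10, in each other list up to 3 genes per line with the largest ratio past 2-fold and a mean of at least 10 CPM, and genes with an IRE-type hairpin. Other names are said to be chosen after their values were seen. Alternatives were other scalings, filters and fold thresholds and a prior count of 2. Flow cytometry, quantitative PCR, western blots and docking were not analysed here. Single values of some list genes are not reported here.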

Additional observations from a re-analysis of the deposited data

Results flagged for a closer look

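In 4 iron genes the periplocin library was higher than DMSO in K562 and lower in THP-1, with counting intervals that left out 0 in both lines. TFR2 had log2 ratios of 0.94 in K562 and -1.57 in THP-1, a difference (K562 minus THP-1) of 2.51. STEAP3 had 0.81 and -1.34, a difference of 2.16. NCOA4 had 1.18 and -0.09, a difference of 1.27, of which nearly all lay in K562. SLC40A1 had 0.33 and -0.42, a difference of 0.75. With 1 library per condition the differences were not tested, and their intervals in the report cover counting error only. The share of all genes that meet the same rule was not counted. Whether 4 of the iron genes is many or few therefore cannot be said.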

How the results depend on the processing

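Of 20 ratios (10 iron genes in 2 lines), all 20 kept their side of 2-fold under DESeq2's size factors, total counts, total counts without mitochondrially encoded genes and a prior count of 2. As rounded, between 18 and 20 kept their sign. A ratio rounded to 0.00 (IREB2 in K562) was counted as losing its sign whenever it moved. The largest shift was 0.41 with the prior count, against at most 0.05 with another scaling. Even so, 2 ratios under DESeq2's size factors and 4 without mitochondrially encoded genes fell outside their counting intervals. Those intervals therefore do not cover the choice of scaling. Counts of calls moved with the threshold and the filter by their construction. In K562, 2421 genes were called, against 5317 with no filter, 1320 at a mean of at least 10 CPM, 4872 at 1.5-fold and 1019 at 3-fold. In THP-1, 2290 were called, against 4808, 1105, 4747 and 917. Of the iron genes, 3 were called in K562, against 5 at 1.5-fold and 0 at 3-fold, and 5 in THP-1, against 6 at 1.5-fold and 2 at 3-fold. The fit over both lines called 0 genes, DESeq2 126 (73 higher and 53 lower, 1844 genes without an adjusted p) and the fit with no filter 2 of 17197. The cause was not tested. With 1 library per condition no replicate block could be fitted and no library left out, and the fit over both lines pairs the libraries by cell line. Depth limits HMOX1 in K562, with 4 and 16 counts, and TFR2 and SLC40A1 in THP-1.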
